A study of Homo sapiens with 24 samples.

Results

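Band 19p12 of human chromosome 19 carries a dense cluster of zinc finger genes, and the long non-coding RNA (lncRNA) intervals of a window named after it were described in both assays of the series. The intervals were 292 of the 175946 annotated rows of the small RNA table and of its 155223 lncRNA rows. They were chosen by class (lncRNA), by position on chromosome 19 between 19500000 and 24500000, by a width of at most 200 kb, and by a name that begins with lnc-, NONHSAG or HSALNG. The window follows these positions and not the bounds of the band, so 19p12 is used below as its name. No count enters that rule, but the region was proposed with results of these libraries known, so its shares of changed intervals are descriptions and support nothing on their own. Of the 292 intervals, 241 had lnc- names (228 of them lnc-ZNF names), 45 had NONHSAG names and 6 had HSALNG names. They carried 213 distinct names, fell into 141 groups of overlapping intervals and covered 1640472 bases between 19503857 and 24163472 (GRCh38). Of these intervals, 139 lay on the plus and 153 on the minus strand, 121 overlapped a protein-coding gene of RefSeq, and their widths ran from 251 to 135966 bp, with a median of 2961.5 bp. Only gene bounds were used, so exons and introns are not told apart.

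The cells were HEK293, an established line derived from human embryonic kidney, with the labelled genotype Wild Type in all groups. The 4 groups were labelled eGFP Overexpression (GFP below, the control, a fluorescent protein), LaminA Overexpression (LMNA), LaminB1 Overexpression (LMNB1) and LaminB2 Overexpression (LMNB2), with 3 replicate libraries per group in each of 2 assays, 24 libraries in all. All small RNA libraries carried the batch label 1 and all ATAC libraries the label 2, so no group differed in it. Small RNA was sequenced from RNA enriched for small species, and chromatin accessibility was read by ATAC-seq, in which a transposase inserts adapters into open DNA. By what vector the proteins were expressed, and whether replicates were separate cultures, is not given in the sources used here, so p-values measure the spread between these libraries, which may be technical. In such bulk libraries, fewer cells that make an RNA and less of it per cell cannot be told apart.

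As background, KRAB zinc finger proteins are DNA-binding repressors that recruit the co-repressor TRIM28 through their KRAB domain, and many of them bind transposable elements. Their genes lie in tandem clusters on chromosome 19 that grew by repeated duplication, and the 19p12 cluster is known for blocks of satellite repeats and for heterochromatin rich in histone H3 lysine 9 trimethylation. Lamins are filament proteins under the inner nuclear membrane, where they hold much of the heterochromatin of a nucleus. The lncRNA intervals of catalogues such as LNCipedia (lnc- names) and NONCODE (NONHSAG names) are often long and lie over, beside or antisense to these genes.

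The start sites that these intervals share with RefSeq genes were read first. The 5′ end of 49 intervals lay within 500 bp of the start of a RefSeq gene, 25 genes in all. Promoters of 5 such genes are printed because intervals described below begin near them. NONHSAG025211.2 begins 6 bp from the start of ZNF93, lnc-ZNF506-8 begins 30 bp from that of ZNF682, and NONHSAG025249.2 begins 64 bp from that of ZNF714. The interval lnc-ZNF708-2 begins 25 bp from the start of LOC105372321, and the 2 intervals named lnc-GMIP-1 begin 26 and 355 bp from that of LPAR2. Each run is the 250 bases before the start, 5′ to 3′ on the gene's strand, from RefSeq (GRCh38.p14), with every CCAATCAG, on either strand, in capitals.
ZNF93 (chr19:19900696-19900945, plus strand): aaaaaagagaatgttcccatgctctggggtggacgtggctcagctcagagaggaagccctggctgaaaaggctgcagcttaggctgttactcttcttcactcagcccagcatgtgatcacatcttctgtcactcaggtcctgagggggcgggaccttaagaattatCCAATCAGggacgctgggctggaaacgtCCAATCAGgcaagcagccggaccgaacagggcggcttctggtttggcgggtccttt
ZNF682 (chr19:20039506-20039755, minus strand): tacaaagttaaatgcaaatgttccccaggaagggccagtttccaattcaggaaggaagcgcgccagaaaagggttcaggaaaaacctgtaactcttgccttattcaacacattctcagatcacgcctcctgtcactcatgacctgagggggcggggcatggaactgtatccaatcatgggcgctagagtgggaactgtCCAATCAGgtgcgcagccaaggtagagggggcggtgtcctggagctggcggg
ZNF714 (chr19:21081953-21082202, plus strand): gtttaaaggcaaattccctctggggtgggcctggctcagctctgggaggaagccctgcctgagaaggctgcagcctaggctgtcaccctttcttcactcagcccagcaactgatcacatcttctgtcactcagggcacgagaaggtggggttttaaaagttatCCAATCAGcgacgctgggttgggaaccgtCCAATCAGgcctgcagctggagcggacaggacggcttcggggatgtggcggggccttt
LOC105372321 (chr19:21463905-21464154, minus strand): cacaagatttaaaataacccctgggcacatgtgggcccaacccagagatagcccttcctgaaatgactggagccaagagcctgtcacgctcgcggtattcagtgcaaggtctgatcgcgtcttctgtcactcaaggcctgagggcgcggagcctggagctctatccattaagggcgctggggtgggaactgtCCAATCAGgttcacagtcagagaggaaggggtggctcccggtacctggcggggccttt
LPAR2 (chr19:19628221-19628470, minus strand): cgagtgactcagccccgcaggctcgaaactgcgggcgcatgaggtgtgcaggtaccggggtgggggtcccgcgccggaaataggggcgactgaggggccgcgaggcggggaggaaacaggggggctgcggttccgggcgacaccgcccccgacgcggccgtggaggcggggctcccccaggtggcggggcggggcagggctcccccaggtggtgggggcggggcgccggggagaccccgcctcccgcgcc
The 8 letters CCAATCAG extend the CCAAT box, the site of the factor NF-Y, and were chosen after these promoters had been read. They stood in 1337 of 35116 RefSeq promoter windows of the same length (3.81%), in 35 of the 81 windows of the span (43.2%), and in 27 of 28 windows of the listed 19p12 zinc finger genes (96.4%). All 27 of these genes with an entry had a match in at least 1 window, 14 had 2 or more, and all 41 matches lay on the gene's own strand. The bases between a match and the start numbered 15 to 79, with a median of 49. In the printed runs, ZNF93 and ZNF714 held 2 matches each, ZNF682 and LOC105372321 held 1, and LPAR2, a lysophosphatidic acid receptor gene with a promoter of 78.4% GC and 30 CpG dinucleotides, held none. The plain CCAAT box, in which these matches are included, was in 56.8% of the windows of the span and 32.0% of all windows. The GC box GGGCGG was in 43.2% and 42.6% of them, and the TATA box TATAAA in 9.88% and 10.7%, both strands searched. A match is a string of letters and not a bound site.

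Library totals, in units of 1000000 counts, ran from 132.5 to 195.1 for small RNA and from 156.0 to 290.2 for ATAC windows. The small RNA scaling factors ran from 0.631 (GFP replicate 1) to 1.31 (GFP replicate 3), the widest gap within a group. The rows over LMNB2, which lies on chromosome 19 outside the cluster, were called in LMNB2 against GFP for 8 of 8 small RNA rows tested (log2 fold changes of 6.22 to 9.77). Of the LMNB1 rows, 3 of 5 were called in LMNB1 against GFP (up to 7.60). The 1 small RNA row tested over LMNA was not called in LMNA (log2 fold change of -0.09), so the small RNA counts do not check that label. Of the ATAC rows, 1 of 6 over LMNA, 3 of 6 over LMNB1 and 2 of 8 over LMNB2 were called in their own group, with log2 fold changes of the called rows up to 8.65, 9.90 and 8.85. The LMNB2 rows that were not called had larger log2 fold changes, 10.4 to 10.9 (edgeR adjusted p of 0.182 to 0.474). An ATAC row without a call is thus not shown to be unchanged. The tables hold non-coding features alone, and no marker gene of HEK293 was checked.

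The small RNA counts over the 19p12 intervals were low. In all, 48 of the 292 intervals, in 20 groups of overlapping intervals, passed the count filter of edgeR (filterByExpr), 244 did not, and 49 of those had no count in any library. The intervals that passed were long, with a median width of 20061 bp against 2157.5 bp for the others, and 35 of the 48 lay over a protein-coding gene. Their mean counts per library ran from 4.67 to 107.6, with a median of 20.2, except for a single interval with 2060.6. In total, 9 of the 48 passed through the LMNB2 libraries and would not have passed without them, so these 48 are not a neutral sample of the 292, and counts over them are descriptions. Per kb of interval, the tested members had a median GFP level of 0.00605 CPM (counts per 1000000 counts of the scaled library) against 0.00492 for all tested lncRNA rows.

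In LMNB2 cells, small RNA over the cluster was higher than in GFP cells for 14 of the 48 tested intervals (29.2%), in 6 groups of overlapping intervals, and lower for none. A call is an adjusted p under 0.05 in the quasi-likelihood test of edgeR, with p-values adjusted by Benjamini-Hochberg over all 33893 features tested. Of those features, 2.65% were called in this comparison, 1.91% higher and 0.741% lower. The median log2 fold change of the 48 was 0.64, against -0.04 over all tested features, and 42 of 48 lay above 0, against 46.8% of all features. All 3 LMNB2 libraries lay above all 3 GFP libraries for 27 of the 48, against 12.1% of all features. Of the 39 that pass the filter without the LMNB2 libraries, 11 were called and the median was 0.44, so 3 of the 14 calls (2 intervals named NONHSAG025203.2 and the shorter tested form of lnc-ZNF708-2) are of intervals admitted only through the group where they are high. The calls depended on the fit. With the 6 LMNB2 and GFP libraries alone, 0 of 44 tested intervals were called (0.0742% of all features), and DESeq2 called 4 of 48, namely lnc-ZNF101-1, lnc-ZNF506-2 and the 2 longest forms of lnc-ZNF253-2 (3.52% of all features). Leaving out 1 library at a time gave 2 (without LMNB2 replicate 3, 0.162% of all features) to 16 (without GFP replicate 3, 5.82%).

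LMNA and LMNB1 showed no call against GFP. For LMNA, 0 of 48 were called (0.0% of all features), 7 had an unadjusted p under 0.05 (5.46% of all features), 20 lay above 0 (42.9% of all features), and the median was -0.10 (all features -0.05). For LMNB1, 0 of 48 were called (0.0384% of all features), 7 had an unadjusted p under 0.05 (5.51%), 26 lay above 0 (44.1%), and the median was 0.04 (all features -0.05). DESeq2 also called 0 in both.

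Against the other lamins the LMNB2 libraries were higher as well. LMNB2 exceeded LMNA in 13 of 48 intervals (27.1%, in 7 overlap groups, against 2.01% of all features called, 1.74% higher and 0.263% lower), with a median log2 fold change of 0.86 and 42 above 0 (49.5% of all features). LMNB2 exceeded LMNB1 in 10 of 48 (20.8%, in 6 overlap groups, against 2.2% called, 1.83% higher and 0.366% lower), with a median of 0.70 and 46 above 0 (49.3% of all features). No interval was called lower in either. Of the 39 intervals that pass the filter without the LMNB2 libraries, 12 and 9 were called. With only the 6 libraries compared, the calls were 25 of 45 against LMNA (10.5% of all features) and 30 of 47 against LMNB1 (15.5%). With 1 library left out they ran from 2 (without LMNB2 replicate 2, 0.0945% of all features) to 22 (without GFP replicate 3, 5.68%) against LMNA. Against LMNB1 they ran from 3 (without LMNB2 replicate 2, 0.448%) to 22 (without GFP replicate 3, 6.0%). LMNB1 against LMNA gave 0 calls in edgeR (0.0118% of all features) and in DESeq2 (0.0295%), 5 intervals at an unadjusted p under 0.05 (5.73% of all features) and a median of 0.07. The 3 LMNB2 comparisons share the LMNB2 libraries, so they do not repeat each other. Together they called 22 intervals in 9 overlap groups, 7 of them in all 3. For 20 of the 48, the 3 LMNB2 libraries lay above all 9 other libraries, against 6.31% of all features. The 48 include the intervals admitted only through the LMNB2 libraries, so this count is not neutral.

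The level of the cluster in a library, taken as each interval's log2 CPM less its mean over the GFP libraries, and then the median over the 48 intervals, was 0.07, 0.03 and -0.00 in the GFP libraries. It was -0.05, -0.16 and -0.09 under LMNA and -0.10, -0.01 and -0.06 under LMNB1. In LMNB2 it was 0.68, 0.84 and 0.61 (0.71 ± 0.11, SD, n = 3). The LMNB2 libraries stood apart from the other 9, which lay between -0.16 and 0.07. Of the 48 intervals, 9 passed the filter only through the LMNB2 libraries, so the gap is partly set by that selection. The level was not taken over the 39 others alone. The same median over all tested features was -0.01 ± 0.02 under LMNB2 (SD, n = 3).

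**Figure D1:**
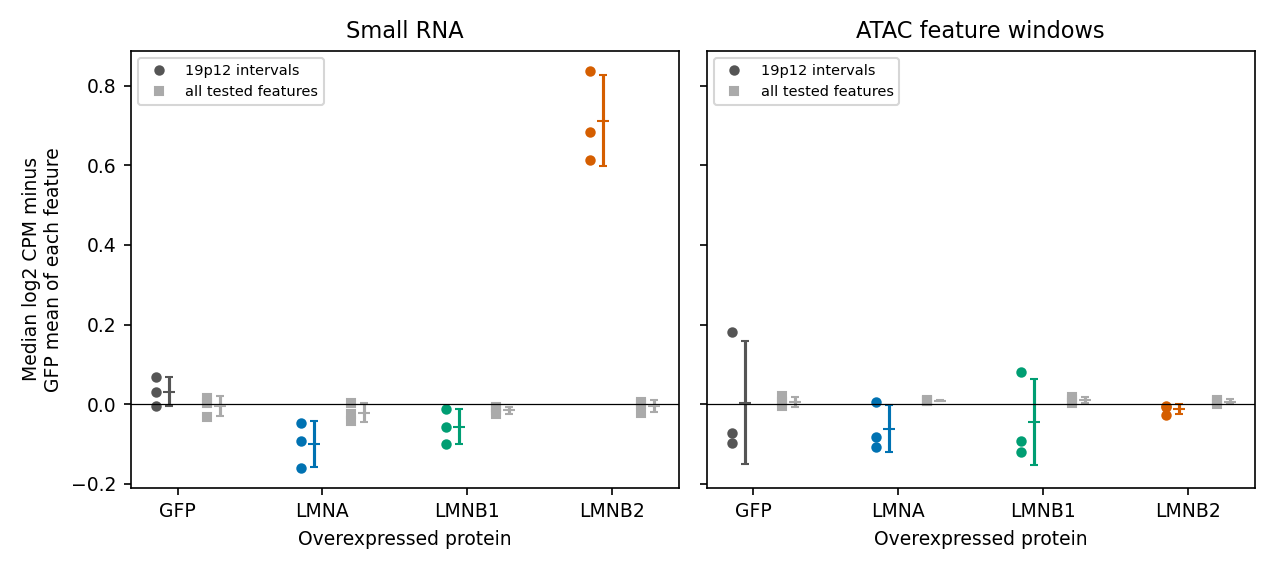
Median log2 CPM minus the GFP mean of each feature, per library, in small RNA (left) and in ATAC feature windows (right). Circles are the 19p12 intervals (48 tested in small RNA, 263 in ATAC), squares are all tested features, and bars are the mean ± SD over 3 libraries. Of the 48, 9 passed the filter only through the LMNB2 libraries. In small RNA the LMNB2 libraries lie at 0.68, 0.84 and 0.61, and in ATAC no group stands apart.

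As a sum, the untested intervals were highest in the LMNB2 libraries, with no test. Some of them, such as shorter forms of lnc-ZNF708-2, lie inside tested intervals and share their reads, so the sum is not separate evidence. Summed over the 244 untested intervals, the level was 1.497 ± 0.0460 CPM under GFP, 1.42 ± 0.0252 under LMNA, 1.53 ± 0.254 under LMNB1 and 2.40 ± 0.173 under LMNB2 (SD, n = 3). The lowest LMNB2 library (2.24) was above the highest of the other 9 (1.75). Summed over the 279 intervals that hold no row of another RNA class, it was 8.11 ± 0.662, 7.18 ± 0.213, 7.56 ± 0.258 and 12.2 ± 0.275 CPM in the same order. Summed over all 292 it was 23.96 ± 7.84, 23.6 ± 0.435, 18.6 ± 0.202 and 29.1 ± 2.14 CPM, and the highest GFP library (32.9) was above all LMNB2 libraries. Overlapping intervals count shared reads more than once in these sums.

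Against GFP, the calls with the lowest adjusted p lay at the telomeric edge of the cluster, over and beside ZNF506 and ZNF253, which encode KRAB zinc finger proteins. The interval lnc-ZNF253-2 (chr19:19776610-19806401, plus strand, 29791 bp) overlaps ZNF506. Its level was 0.223, 0.198 and 0.146 CPM under GFP, 0.218, 0.172 and 0.216 under LMNA, 0.265, 0.244 and 0.284 under LMNB1 and 0.464, 0.582 and 0.448 under LMNB2. All LMNB2 libraries were above all others, and the LMNB1 libraries were above those of GFP and LMNA. The log2 fold change of LMNB2 over GFP was 1.36 ± 0.19 (SE; edgeR adjusted p = 0.00203), and that of LMNB1 over GFP was 0.48 ± 0.19 (adjusted p = 0.861). A longer interval of the same name (chr19:19776576-19834952) had 1.24 ± 0.18 against GFP, 1.19 ± 0.17 against LMNA and 0.99 ± 0.17 against LMNB1, with edgeR adjusted p-values of 0.00237, 0.00292 and 0.00574.

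Both intervals share reads with 5 shorter intervals named lnc-ZNF253-2 or NONHSAG025203.2, also called against GFP, whose log2 fold changes were 1.35 to 1.60. Of these 5, NONHSAG025203.2 at chr19:19776052-19786873 and at chr19:19776669-19786952 passed the filter only through the LMNB2 libraries. Nothing is read from the gap at those forms, and the shared reads make none of the 5 separate evidence. The next interval, lnc-ZNF506-2 (chr19:19834851-19897795, minus strand), overlaps ZNF253. It read 0.240, 0.206 and 0.163 CPM under GFP and 0.422, 0.415 and 0.512 under LMNB2, while the 6 LMNA and LMNB1 libraries lay between 0.168 and 0.214. The LMNB2 libraries did not overlap the others, and the interval was higher by 1.11 ± 0.18 (log2) against GFP, 1.18 ± 0.18 against LMNA and 1.11 ± 0.18 against LMNB1 (edgeR adjusted p of 0.00769, 0.00423 and 0.00377). With 1 library left out at a time, lnc-ZNF506-2 was called in 11 of 12 fits against GFP and in 12 of 12 against each other lamin, and the 29791 bp form of lnc-ZNF253-2 in 12 of 12 against GFP, 11 of 12 against LMNA and 6 of 12 against LMNB1 (edgeR adjusted p up to 0.136).

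The other 3 calls of the telomeric edge lie around ZNF101, ZNF14 and ZNF93, again zinc finger genes. The long interval lnc-ZNF101-1 (chr19:19621012-19745281, plus strand) spans LPAR2, GMIP (a GTPase-activating protein gene), ATP13A1 (a P5-type ATPase gene), ZNF101 and ZNF14. Its level was 0.661, 0.573 and 0.625 CPM under GFP, 0.497, 0.543 and 0.532 under LMNA, 0.658, 0.605 and 0.568 under LMNB1 and 0.891, 1.14 and 1.01 under LMNB2. The LMNB2 libraries were again above all 9 others, by 0.70 ± 0.15 on the log2 scale against GFP (edgeR adjusted p = 0.0232), 0.94 ± 0.15 against LMNA and 0.72 ± 0.15 against LMNB1. With 1 library left out, lnc-ZNF101-1 was called in 9, 11 and 7 of 12 fits in the same order (edgeR adjusted p up to 0.137 against GFP). NONHSAG025211.2 (chr19:19900952-19933021, plus strand) starts at the ZNF93 promoter printed above, and ZNF93 encodes a repressor of LINE-1 elements. It read 0.0686, 0.103 and 0.101 CPM under GFP and 0.205, 0.217 and 0.142 under LMNB2, a log2 fold change of 0.94 ± 0.23 (edgeR adjusted p = 0.0406), and lnc-ZNF93-1, which contains it, had 0.75 ± 0.20 (adjusted p = 0.0487). NONHSAG025211.2 was called in 1 of the 12 fits with a library left out, with edgeR adjusted p-values from 0.0317 to 0.1755.

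**Figure D2:**
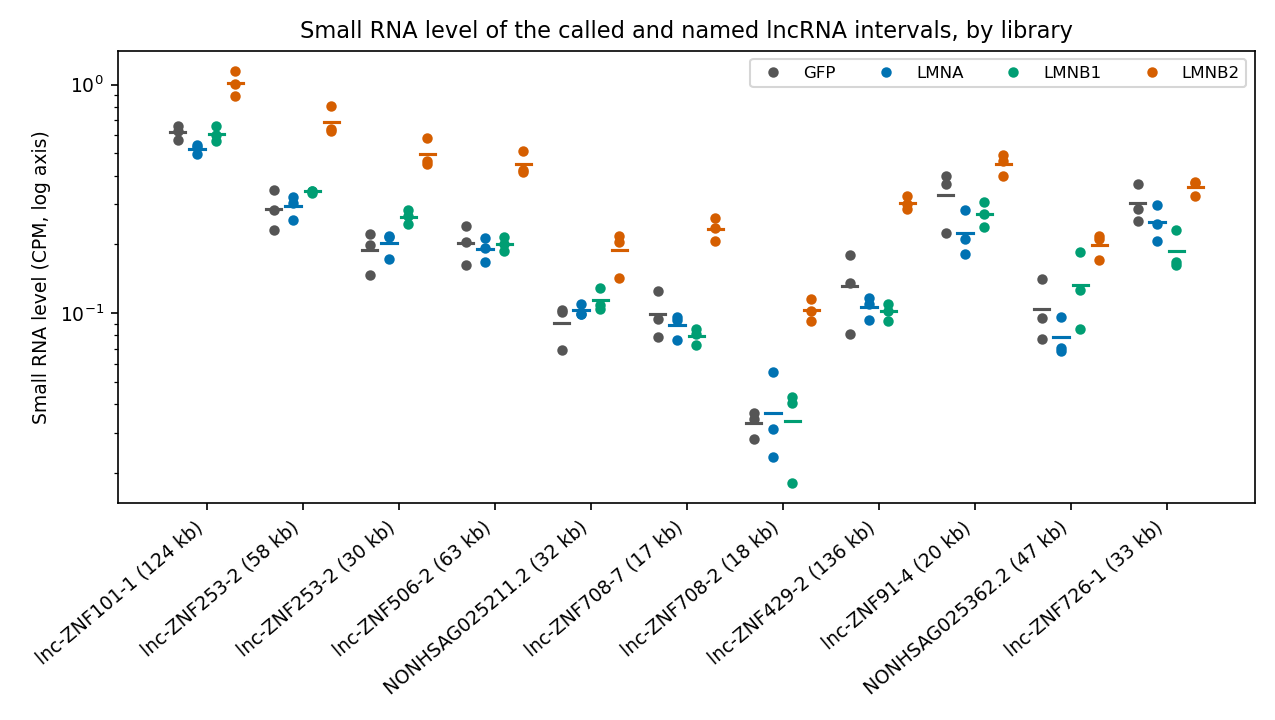
Small RNA level (CPM, log axis) of the 11 intervals named for a call in an LMNB2 comparison, ordered along the chromosome, with the width of each in kb. The intervals were picked for these calls, so the height of LMNB2 is partly set by that choice. Of them, lnc-ZNF708-2 passed the filter only through the LMNB2 libraries. Points are libraries and dashes are group means; for lnc-ZNF253-2 (30 kb) the LMNB2 libraries sit between 0.448 and 0.582 CPM and all others at or below 0.284 CPM.

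A second group of called intervals lies near the middle of the cluster. The interval lnc-ZNF708-7 (chr19:21362151-21379108, minus strand) lies over ZNF738. Its level was 0.0944, 0.125 and 0.0788 CPM under GFP, 0.0933, 0.0962 and 0.0759 under LMNA, 0.0724, 0.0856 and 0.0811 under LMNB1 and 0.235, 0.262 and 0.206 under LMNB2. The groups other than LMNB2 overlapped each other, and LMNB2 was higher by 1.16 ± 0.22 against GFP, 1.29 ± 0.22 against LMNA and 1.42 ± 0.22 against LMNB1 (edgeR adjusted p of 0.0181, 0.00704 and 0.00299, the last being the lowest of the cluster in that comparison). With 1 library left out, lnc-ZNF708-7 was called in 10, 11 and 12 of 12 fits in the same order (edgeR adjusted p up to 0.0912 against GFP). DESeq2 did not call it against GFP. The interval lnc-ZNF429-2 (chr19:21586768-21722734, plus strand), at 135966 bp the longest of the 292, overlaps no coding gene of RefSeq. It read 0.180, 0.0807 and 0.135 CPM under GFP and 0.301, 0.326 and 0.284 under LMNB2, with the 6 other libraries between 0.0927 and 0.117. Its log2 fold changes were 1.14 ± 0.23, 1.41 ± 0.23 and 1.47 ± 0.23 against GFP, LMNA and LMNB1 (edgeR adjusted p of 0.0216, 0.00608 and 0.00309). With 1 library left out, lnc-ZNF429-2 was called in 8, 11 and 12 of 12 fits in the same order (edgeR adjusted p up to 0.0983 against GFP). DESeq2 did not call it against GFP. The third, lnc-ZNF708-2 (chr19:21446191-21463929, minus strand), starts at the LOC105372321 promoter printed above. It rested on a mean of 8.0 counts per library and read 0.0343, 0.0367 and 0.0281 CPM under GFP and 0.102, 0.115 and 0.0924 under LMNB2 (1.36 ± 0.33, adjusted p = 0.0379, called in 3 of 12 fits with a library left out). Its counts were at most 8 in each library outside LMNB2, so it passed the filter only through the LMNB2 libraries, which had 17, 18 and 13.

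In the centromere-side part, calls came from the lamin comparisons and not from GFP. The interval lnc-ZNF91-4 (chr19:23338827-23358873, minus strand) lies within ZNF91, whose product represses SVA elements. It read 0.369, 0.396 and 0.225 CPM under GFP, 0.211, 0.282 and 0.181 under LMNA, 0.271, 0.238 and 0.307 under LMNB1 and 0.398, 0.492 and 0.462 under LMNB2. The LMNB2 and GFP libraries nearly met, LMNA was lowest, and LMNB2 was higher than LMNA by 0.97 ± 0.21 (edgeR adjusted p = 0.0278) and than GFP by 0.45 ± 0.21 (adjusted p = 0.245). NONHSAG025362.2 (chr19:23762993-23809993, over RPSA2, a ribosomal protein SA paralogue) was higher in LMNB2 than in LMNA by 1.23 ± 0.28 (adjusted p = 0.0299). The interval lnc-ZNF726-1 (chr19:24033419-24066769, over ZNF254) was higher in LMNB2 than in LMNB1 by 0.88 ± 0.20 (adjusted p = 0.0281), with 0.369, 0.286 and 0.253 CPM under GFP, 0.163, 0.232 and 0.168 under LMNB1 and 0.325, 0.371 and 0.377 under LMNB2. Here the GFP libraries reached the LMNB2 level, and the log2 fold change against GFP was 0.24 ± 0.20 (adjusted p = 0.519). With a library left out, lnc-ZNF91-4 was called in 4 of 12 fits (edgeR adjusted p up to 0.148), NONHSAG025362.2 in 5 (up to 0.135) and lnc-ZNF726-1 in 6 (up to 0.157). DESeq2 and total-count scaling did not call lnc-ZNF726-1.

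Along the cluster, with 4 stretches drawn after the values had been seen, the called intervals lay as follows, against 2.65%, 2.01% and 2.2% of all features called in LMNB2 over GFP, LMNA and LMNB1. From 19.5 to 20 Mb, 17 of 46 intervals were tested, 11 were called against GFP and the median log2 fold change of LMNB2 over GFP was 1.11. Of these 17, lnc-LPAR2-2, lnc-GMIP-2, lnc-ZNF14-4 and called forms of NONHSAG025203.2 passed the filter only through the LMNB2 libraries. The calls and the median of this stretch are thus partly set by that selection. From 20 to 21.3 Mb, 6 of 61 were tested and none was called against GFP (edgeR). The median of these 6 was -0.48. Among them, the 3 intervals named lnc-ZNF737-3 and NONHSAG025249.2 take 59.3% to 96.2% of their counts from other RNA classes, as described below. The median is thus not that of lncRNA reads alone. The others were lnc-ZNF506-8 (0.67 ± 0.31, edgeR adjusted p = 0.233) and lnc-ZNF486-13, which was lower in LMNB2 (mean of 0.0950 CPM against 0.138 in GFP, not called). From 21.3 to 21.9 Mb, 8 of 44 were tested, 3 were called, and the median was 1.14. From 21.9 to 24.5 Mb, 17 of 141 were tested, with 0 calls against GFP, 5 against LMNA and 2 against LMNB1, and a median of 0.42 against GFP. Here a form of lnc-ZNF91-4 (chr19:23337805-23340162) passed only through the LMNB2 libraries.

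**Figure D3:**
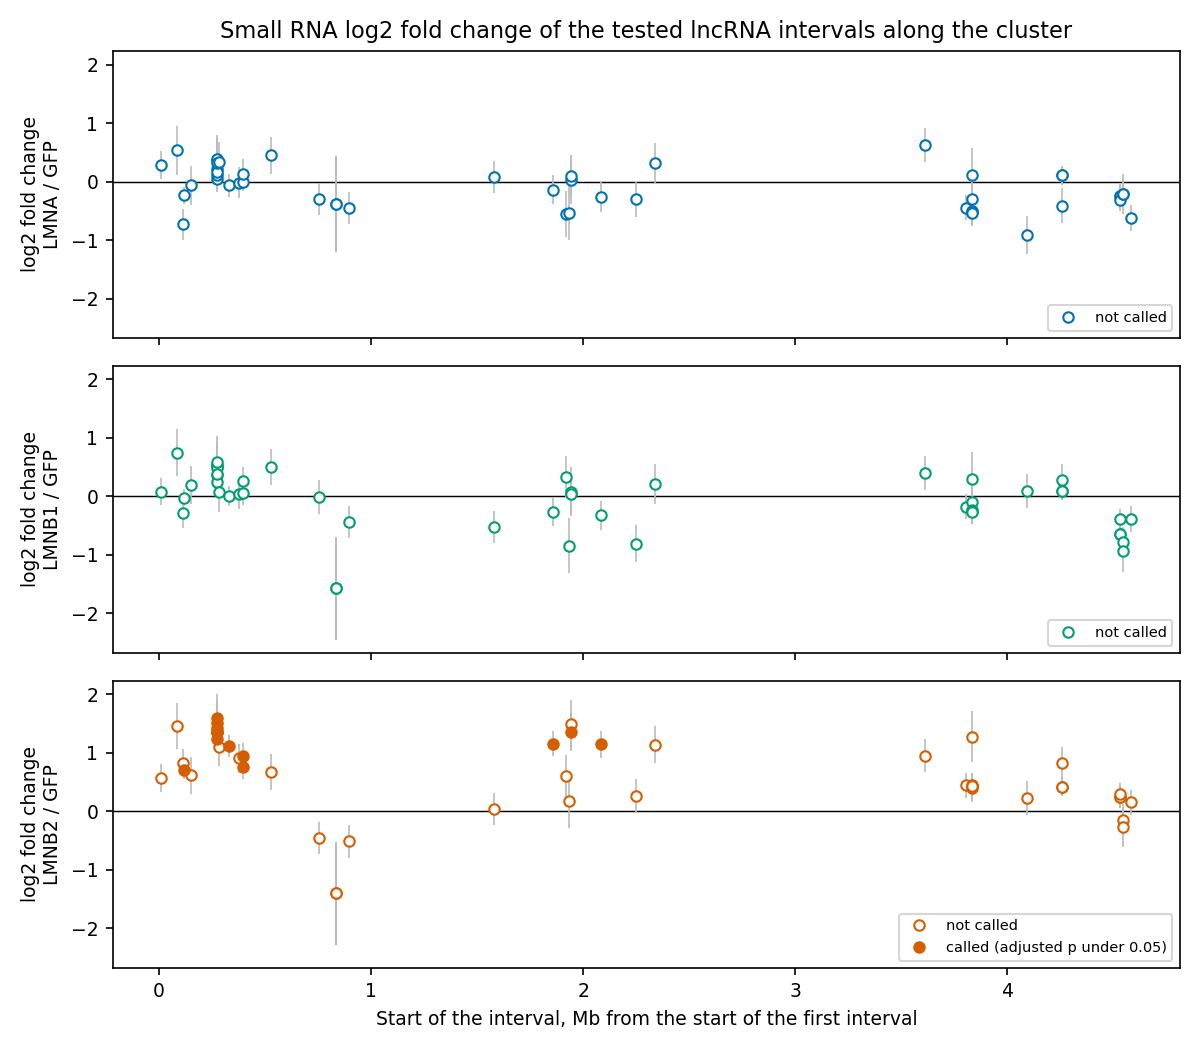
Small RNA log2 fold change over GFP of the 48 tested intervals for LMNA, LMNB1 and LMNB2, against the distance of the interval's start from the first interval (Mb). Of the 48, 9 passed the filter only through the LMNB2 libraries. Error bars are standard errors and filled points are called; the 14 filled points are all in the LMNB2 panel and above 0, 11 of them near the left edge and 3 near 2 Mb.

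The same intervals were also grouped by the 35 listed 19p12 zinc finger genes, which is not separate evidence. Of these genes, 29 were overlapped by an interval and 13 by a tested one. In LMNB2 against GFP, the median log2 fold change of the intervals over a gene was above 0 for all 13, from 0.05 at ZNF714 to 1.30 at ZNF506. Of all tested features, taken singly, 46.8% lay above 0 and 2.65% were called in this comparison. Called intervals lay over 5 of the 13 (ZNF14, ZNF506, ZNF253, ZNF93 and ZNF738), and over ZNF91 and ZNF254 too when the other lamins were the reference (2.01% and 2.2% of all features called against LMNA and LMNB1). The counts do not separate strands, as described next, so reads of a zinc finger transcript and of the lncRNA interval over it cannot be told apart.

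The highest counts in the cluster came from other RNA classes that lie inside an interval. NONHSAG025249.2 (chr19:21082139-21125103, plus strand, over ZNF714) had the highest level per kb, 0.321 CPM per kb in GFP. Its counts were 1201, 1207 and 3938 under GFP, 2367, 2269 and 2305 under LMNA, 1679, 1509 and 1630 under LMNB1 and 2431, 2452 and 1739 under LMNB2. A row inside it on the minus strand, at chr19:21113102-21113261, where RefSeq has the 5S ribosomal RNA pseudogene RNA5SP469, held 96.2% of them. Counts of the opposite strand were thus included in the interval. The remainder was 56, 69 and 52 under GFP, 77, 44 and 68 under LMNA, 70, 78 and 88 under LMNB1 and 123, 115 and 111 under LMNB2. Without the 5S-like row, the LMNB2 libraries were the highest in counts and in CPM (0.755 ± 0.0295 against 0.427 ± 0.117 under GFP, SD, n = 3), while the whole interval had a log2 fold change of 0.05 ± 0.27.

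**Figure D4:**
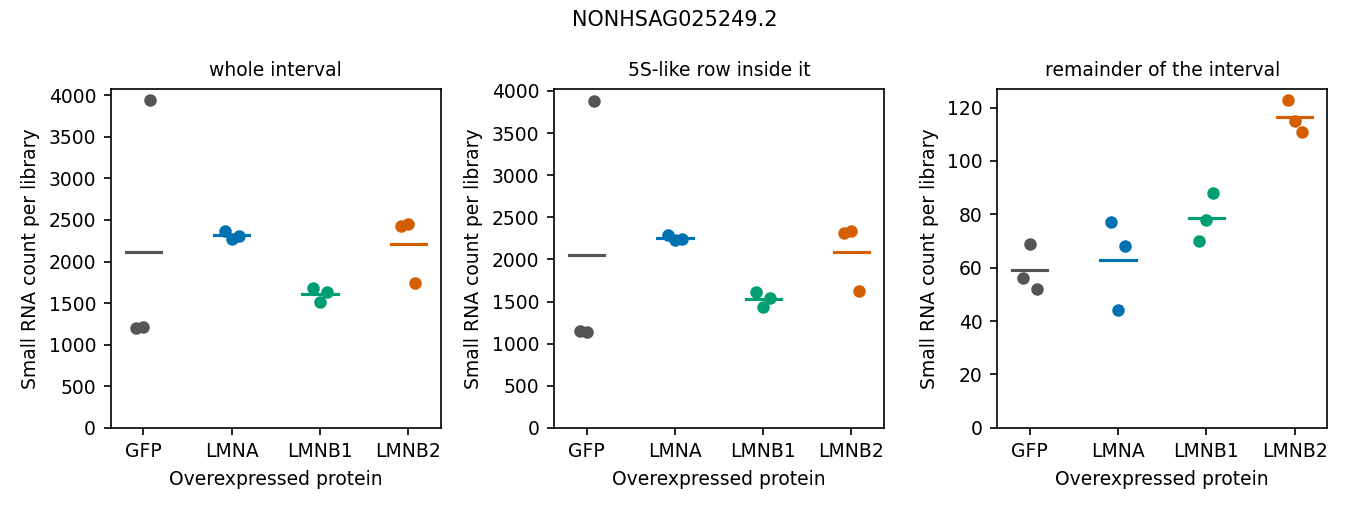
Small RNA counts per library for NONHSAG025249.2: the whole interval, the 5S-like row inside it and the remainder, with group means as dashes. GFP replicate 3 (3938 counts) leads the first panel, and the LMNB2 libraries (123, 115 and 111 counts) lead the last.

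The lowest fold change of the cluster had the same property. The interval lnc-ZNF737-3 (chr19:20340243-20424994, minus strand) had a log2 fold change of -1.40 ± 0.88 under LMNB2 and -1.57 ± 0.88 in LMNB1 over GFP (edgeR adjusted p of 0.419 and 0.861). Its counts were 25, 21 and 200 under GFP, 26, 20 and 148 under LMNA, 24, 29 and 30 under LMNB1 and 33, 31 and 23 under LMNB2, so replicate 3 stood apart in GFP and in LMNA. A row named as a mir-720 precursor and the microRNA row MIR1270 inside it held 68.4% of these counts. The remainder was 19, 14 and 20 under GFP, 7, 9 and 13 under LMNA, 11, 17 and 14 under LMNB1 and 23, 28 and 18 under LMNB2. The microRNA is printed as the only mature microRNA that the RefSeq table lists in the span, with its seed, bases 2 to 8, in capitals.
hsa-miR-1270 (chr19:20399320-20399342, minus strand): cUGGAGAUauggaagagcugugu
The MIR1270 row counted 5, 7 and 34 reads under GFP, 14, 11 and 15 under LMNA, 13, 11 and 15 under LMNB1 and 10, 3 and 5 under LMNB2. With the counts of other classes subtracted from all intervals, an alternative chosen after the data had been seen, 16 intervals were called against GFP, 17 against LMNA and 11 against LMNB1 (2.66%, 2.02% and 2.2% of all features).

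Short intervals with few counts made up the rest of the highest levels per kb in GFP: lnc-ZNF726-7 with 0.206 CPM per kb, lnc-ZNF486-13 with 0.0942, lnc-LPAR2-2 with 0.0536 and lnc-GMIP-2 with 0.0285. With all 12 libraries in the fit none of them was called. With only the LMNB2 and LMNA libraries, lnc-ZNF726-7 was called higher in LMNB2 (log2 fold change of 1.13, edgeR adjusted p = 0.0425). Both lnc-LPAR2-2 and lnc-GMIP-2 passed the filter only through the LMNB2 libraries. The interval lnc-LPAR2-2 (375 bp, over PBX4) read 0.00858, 0.0294 and 0.0225 CPM under GFP and 0.0904, 0.0767 and 0.0711 under LMNB2, on 1, 4 and 4 against 15, 12 and 10 counts (1.46 ± 0.40, adjusted p = 0.0586). Nothing is read from the gap between these groups, since the high LMNB2 counts are what admitted the interval to the test. The interval lnc-ZNF486-13 went the other way, with 0.197, 0.110 and 0.107 CPM under GFP and 0.102, 0.0831 and 0.0995 under LMNB2 (-0.45 ± 0.28, adjusted p = 0.376). For LMNA over GFP the largest changes among the better-counted intervals were -0.62 ± 0.23 at NONHSAG025369.2 (chr19:24087189-24107265), -0.54 ± 0.22 at lnc-ZNF91-4 (chr19:23338850-23359005), 0.28 ± 0.23 at NONHSAG025185.2 and 0.11 ± 0.20 at lnc-ZNF253-2, with edgeR adjusted p-values of 0.893 to 0.976.

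Calls in LMNB2 were also made outside 19p12. Among lncRNA rows with the same name and width filter in the other zinc finger cluster of the chromosome, 19q13.4, 37 of 173 tested were called against GFP (21.4%), with a median log2 fold change of 0.66. Among the rest of chromosome 19, 87 of 727 were called against GFP (12%), with a median of 0.49. Against LMNA, 24.9% of the 19q13.4 rows were called (median 0.74) and 12.1% of the rest (0.49). Against LMNB1 the values were 26% (0.65) and 11.7% (0.44). Of all features, 2.65%, 2.01% and 2.2% were called against GFP, LMNA and LMNB1. All tested lncRNA rows of chromosome 19 other than the 292 intervals had the highest median of the 23 chromosomes, 0.44, and chromosome 5 had the lowest, -0.235. That set was not cleared of lncRNA rows of other names in the same span (191, tested or not) or of rows over LMNB2. The rest of chromosome 19 above also holds rows over LMNB2. The 19p12 intervals and these rows were not tested against each other. Across lncRNA rows of at least 10 kb, 2.51% were called and the median was -0.06. The lncRNA share of all counts moved with the group: it was 83.5% ± 3.64 under GFP, 81.9% ± 1.31 under LMNA, 81.6% ± 0.650 under LMNB1 and 78.5% ± 0.489 under LMNB2 (SD, n = 3), lowest in the 3 LMNB2 libraries. The part of this share in the result was not tested.

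Chromatin accessibility showed no called interval in any comparison. The same fit left rows over LMNB2 with log2 fold changes of 10.4 to 10.9 uncalled in LMNB2 over GFP. A missing call is therefore not evidence of no change. Of the 292 feature windows (each interval widened on both sides), 263 in 122 overlap groups passed the filter, with a median mean count of 55.3 per library, and 29 did not. Against GFP, edgeR called 0 of 263 for LMNA, LMNB1 and LMNB2, and so did DESeq2, while 6, 2 and 12 windows had an unadjusted p under 0.05, against 5.19%, 4.78% and 5.72% of all windows. Of all 163786 tested windows, 0.000611%, 0.00305% and 0.00244% were called. For LMNB1 against LMNA, LMNB2 against LMNA and LMNB2 against LMNB1, both tools again called 0, with 8, 12 and 13 windows at an unadjusted p under 0.05 (5.37%, 7.17% and 4.98% of all windows) and 0.223%, 0.00305% and 0.00305% of all windows called. The median log2 fold changes over GFP were -0.09 for LMNA, -0.07 for LMNB1 and -0.05 for LMNB2, against -0.00 over all windows in each, and 83, 87 and 108 of the 263 lay above 0 (49.6%, 49.5% and 49.1% of all windows).

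The share of ATAC counts on the mitochondrial chromosome moved with the group. It was 39.9%, 47.5% and 46.95% under GFP, 39.4%, 44.1% and 39.8% under LMNA, 33.9%, 32.8% and 34.1% under LMNB1 and 25.2%, 30.7% and 24.5% under LMNB2, the LMNB2 libraries below all others. With scaling that leaves this chromosome out, 0 of 263 windows were again called in each comparison.

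The median fold changes were within the spread of the control libraries. The median level of the windows was -0.07, -0.10 and 0.18 in the GFP libraries, -0.08, -0.11 and 0.01 under LMNA, -0.12, -0.09 and 0.08 under LMNB1 and -0.01, -0.00 and -0.03 under LMNB2, so GFP replicate 3 was the highest of the 12. The LMNB2 libraries lay between those of GFP. Leaving out 1 library at a time moved the LMNB2 median from -0.09 to 0.04.

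Accessibility over the cluster was low. The median window had 0.0545 CPM per kb in GFP, from 0.0110 to 2.15, against 0.0978 over all lncRNA windows, 0.183 over those of 19q13.4 and 0.246 over the rest of chromosome 19. Of the 263 windows, 60 lay above the median of all lncRNA windows and 10 above 1 CPM per kb. The highest was at a gene start. The window of lnc-GMIP-1 (chr19:19627822-19628575), which covers the LPAR2 start printed above, read 2.28, 2.17 and 2.02 CPM under GFP, 1.99, 2.12 and 2.30 under LMNA, 2.02, 1.98 and 1.69 under LMNB1 and 2.17, 1.94 and 2.08 under LMNB2, with all groups overlapping.

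NONHSAG025203.2 (chr19:19776052-19786873), in the overlap group of lnc-ZNF253-2, had 1.48 CPM per kb, the highest of the overlap groups outside that of lnc-GMIP-1. It read 20.2, 15.1 and 13.8 CPM under GFP and 19.1, 12.96 and 20.96 under LMNB2, groups that overlapped throughout. The next overlap groups were led by lnc-ZNF430-3 (1.10 CPM per kb), lnc-ZNF506-8 at the ZNF682 start (0.741) and lnc-ZNF100-1 over ZNF43 (0.701).

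The largest ATAC differences among the better-counted windows did not pass the test. The window of lnc-CILP2-1 (chr19:19605855-19609207, over PBX4, a homeobox gene) read 0.448, 0.364 and 0.408 CPM under GFP and 0.585, 0.622 and 0.4998 under LMNB2, which did not overlap (0.48 ± 0.17, edgeR adjusted p = 0.860). The LMNA and LMNB1 libraries lay between 0.449 and 0.539 CPM. At lnc-ZNF708-7, called in small RNA, the window read 0.435, 0.469 and 0.495 CPM under GFP and 0.578, 0.678 and 0.624 under LMNB2 (0.42 ± 0.17, adjusted p = 0.862). The largest negative values in LMNB2 were -0.43 ± 0.22 at lnc-GMIP-2 and -0.40 ± 0.24 at lnc-ZNF91-4 (chr19:23304314-23309120). In LMNA they were -0.39 ± 0.20 at lnc-ZNF85-1 and -0.35 ± 0.23 at lnc-ZNF726-3, beside 0.31 ± 0.14 at lnc-LPAR2-3. In LMNB1 they were -0.45 ± 0.19 at NONHSAG025226.2 and -0.37 ± 0.24 at lnc-ZNF91-4, beside 0.32 ± 0.22 at lnc-ZNF728-2.

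The flanks of the intervals read like the windows. The 584 flanks of the 292 intervals at each distance begin 350 bp outside the window and are 500, 5000 or 50000 bp long, and flanks of neighbours overlap. In the 500 bp flanks the median level was 0.0531 ± 0.00785 CPM per kb in GFP, 0.0473 ± 0.00828 under LMNA, 0.0497 ± 0.00466 under LMNB1 and 0.0442 ± 0.00327 under LMNB2 (SD, n = 3). The median log2 ratios to GFP were -0.00, 0.02 and -0.02 under LMNA, LMNB1 and LMNB2 for 500 bp, -0.10, -0.06 and -0.07 for 5000 bp and -0.04, -0.05 and -0.05 for 50000 bp, against -0.00 to 0.02 over all flanks. The GFP libraries themselves spread by an SD of 0.09, 0.17 and 0.11 at these distances, and no group median exceeded that.

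**Figure D5:**
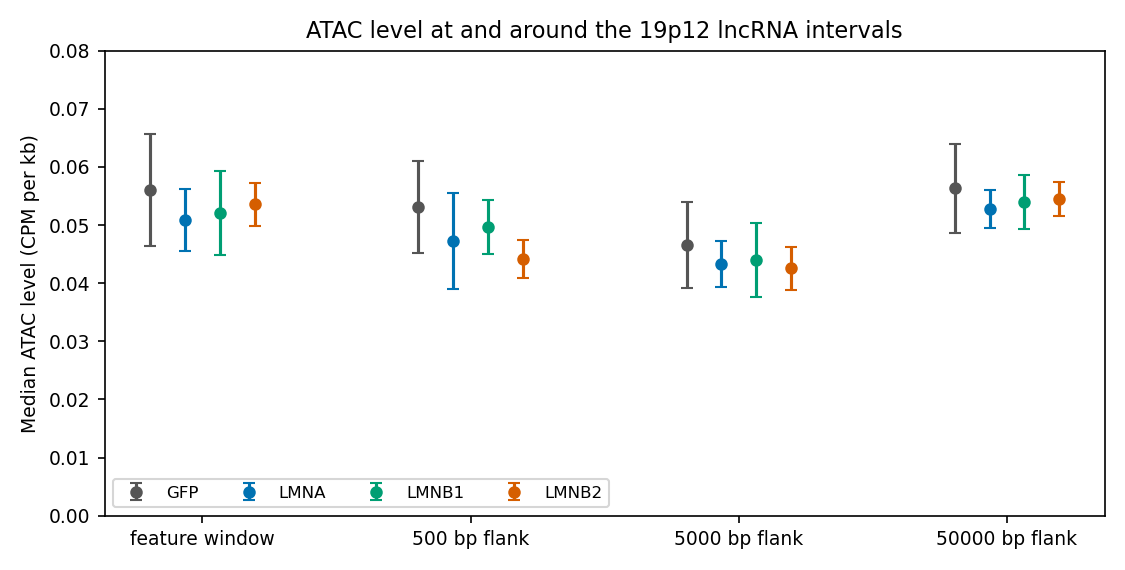
Median ATAC level (CPM per kb) of the feature windows and of the 500, 5000 and 50000 bp flanks of the 19p12 intervals, mean ± SD over 3 libraries per group. The group means lie between 0.0426 and 0.0563 CPM per kb and their error bars overlap at each distance.

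Across the 47 intervals tested in both assays, which share chromosome and overlapping reads, Spearman's rho between the small RNA and the ATAC log2 fold changes was 0.37 for LMNA, 0.20 for LMNB1 and 0.27 for LMNB2 over GFP. Between the levels per kb in GFP it was -0.26. These are descriptions across intervals, which are not replicates.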

How the data were processed

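Small RNA and ATAC-seq of HEK293 cells were compared between 4 groups of 3 libraries in each assay. The deposited values were whole-number counts per annotated feature, made by the authors on GRCh38, per the submitters' processing notes; the aligner, the counter and its use of strand are not given in the sources used here. The ATAC counts cover feature windows 125 bp wider on each side, with flanks of 500, 5000 and 50000 bp. Counts were fitted with edgeR 4.0.16 in R 4.3.3 (filterByExpr, TMM scaling, robust quasi-likelihood test, prior count 2), on all 12 libraries of an assay, with Benjamini-Hochberg adjustment over all 33893 small RNA and 163786 ATAC features tested. CPM used the TMM-scaled library sizes. Standard errors are the log2 fold change divided by the root of F. DESeq2 1.42.0 was an alternative, with others on scaling, filters, libraries and overlap. The fit was tested on simulated data.

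The members and lists were chosen with earlier results of these data known. Intervals were named by a fixed rule: up to 6 called per comparison with the lowest p, 1 per overlap group; the 2 largest changes in each direction per lamin against GFP among those at or above the median level; and the 5 highest per kb. The forms of lnc-ZNF253-2 and NONHSAG025203.2 beyond these, and lnc-ZNF93-1, were named after their values were seen. Promoter and microRNA sequences come from RefSeq (GRCh38.p14). No 2 replicates agreed within sampling noise, so each library counted once.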

Additional observations from a re-analysis of the deposited data

How the results depend on the processing

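The numbers of intervals called in LMNB2 depended on the fit, while the medians in the 3 small RNA LMNB2 comparisons stayed above 0 under each alternative run. Against GFP, the calls were 7 with total-count scaling (0.832% of all features), 4 with DESeq2 (3.52%), 0 with only the libraries compared (0.0742%), 3 at an adjusted p under 0.01 (71 of all features), 9 without intervals over another class and 5 with 1 interval per overlap group. Leaving out 1 library gave 2 to 16 (0.138% to 5.82% of all features over the 12 fits); it gave 7 without GFP replicate 1, 4 without GFP replicate 2, 8 without LMNA replicate 1, 6 without LMNB1 replicate 2, 9 without LMNB1 replicate 3, and 5, 3 and 2 without LMNB2 replicates 1, 2 and 3. The median was 0.87 with total counts (all features 0.19), 0.222 with no filter, 0.455 at a mean of at least 10 counts and 0.761 with DESeq2 (0.436 to 0.723 with a library left out), and 0.443 for intervals that pass the filter without the LMNB2 libraries. Against LMNA, the calls were 25 with only the libraries compared (10.5%), 7 at an adjusted p under 0.01 (94 of all features), 5 with 1 per group and 2 to 22 with a library left out (22 without GFP replicate 3, 2 without LMNB2 replicate 2, and 7 or 8 without LMNA replicate 1 or 3, any LMNB1 replicate, or LMNB2 replicate 1 or 3). The median was 1.06 with total counts, 0.243 with no filter and 0.726 with 1 per group (0.765 to 0.911 with a library left out). Against LMNB1, the calls were 3 with total counts (0.18%), 6 with DESeq2 (1.91%), 30 with only the libraries compared (15.5%), 4 at an adjusted p under 0.01 (149 of all features), 4 with 1 per group and 3 to 22 with a library left out (22 without GFP replicate 3, 4 without each LMNB1 replicate, and 5, 3 and 4 without LMNB2 replicates 1, 2 and 3). The median was 0.222 with no filter (0.641 to 0.764 with a library left out). The cause of these moves was not tested.

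The medians of the comparisons without calls also moved with the setting. For LMNA over GFP the small RNA median was 0.00 with no filter, -0.225 at a mean of at least 10, -0.038 with lncRNA scaling, -0.207 with only the libraries compared and -0.186 with 1 per group (-0.139 to -0.019 with a library left out). For LMNB1 over GFP it was 0.193 with total counts, 0.00 with no filter, -0.091 at a mean of at least 10 and -0.131 with only the libraries compared (-0.044 to 0.055). For LMNB1 over LMNA it was 0.21 with total counts, 0.00 with no filter, 0.171 with nested counts subtracted, 0.127 without intervals over another class and -0.036 with 1 per group (0.03 to 0.103), and only the libraries compared gave 1 call, NONHSAG025249.2 (-0.61, edgeR adjusted p = 0.0494). In ATAC, total counts moved the median of LMNB1 to 0.112 over GFP and 0.11 over LMNA, and that of LMNB2 over LMNB1 to -0.049. With only the libraries compared, 1 window was called in LMNB2 over LMNA, NONHSAG025354.2 (0.61, edgeR adjusted p = 0.0430). Leaving out a library moved the ATAC medians of LMNA, LMNB1 and LMNB2 over GFP to -0.15 to -0.008, -0.156 to -0.002 and -0.089 to 0.044, those of LMNB1 and LMNB2 over LMNA to -0.043 to 0.04 and 0.029 to 0.058, and that of LMNB2 over LMNB1 to 0.013 to 0.095. Total counts moved the flank medians to 0.144 (LMNB1) and 0.06 (LMNB2) at 500 bp, 0.121 (LMNB1) at 5000 bp, and 0.048, 0.141 and 0.063 (LMNA, LMNB1, LMNB2) at 50000 bp. With a library left out, those of LMNA, LMNB1 and LMNB2 ran from -0.098 to 0.066, -0.074 to 0.076 and -0.101 to 0.074 at 500 bp, -0.171 to -0.005, -0.141 to 0.028 and -0.122 to 0.015 at 5000 bp, and -0.078 to -0.014, -0.083 to -0.005 and -0.084 to -0.004 at 50000 bp.

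With the replicate number as a block, 10, 12 and 10 intervals were called in LMNB2 against GFP, LMNA and LMNB1 (2.16%, 1.7% and 1.71% of all features), and 0 in each other small RNA comparison and in ATAC. Deviations of same-numbered libraries correlated by a mean of 0.040 (-0.041 to 0.234, 18 pairs) in small RNA and 0.017 (-0.076 to 0.195) in ATAC. For libraries with different numbers the means were -0.020 (-0.207 to 0.071, 36 pairs) and -0.008 (-0.155 to 0.090). The same-numbered pairs were slightly higher, and whether the numbers pair the samples was not tested. Most small RNA intervals rest on few counts, and 244 of 292 were too low to test.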
